A study of Mus musculus with 6 samples.

Results

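The precursor genes of 10 neuropeptides and peptide hormones were examined in the newborn mouse inner ear: Trh, Pyy, Npy, Gal, Sst, Cartpt, Penk, Calca, Nppc and Adm, out of 39179 genes in the count files. Trh and Pyy were chosen by their counts in these same libraries, so their values are given as a description without a test, and the other 8 are further peptide genes that were not picked for their counts. The material was sensory epithelium of the cochlea and of the vestibule of wild-type C57Bl/6J mice at postnatal day 0, both sexes pooled, with neither a treatment nor a mutation in either tissue. There were 3 cochlear and 3 vestibular mRNA libraries, each made from 450 ng of RNA of a pool of at least 20 organs. The design text names 20 inner ears of 10 mice, giving 2.4 µg of cochlear and 1.5 µg of vestibular RNA. Nothing says whether the 3 libraries of a tissue came from separate pools, so p-values measure the spread between these libraries. What part of that spread is technical was not tested. Gene counts per library were 24464483 to 33664793, so that a level of 1 CPM (1 count per 1000000 gene counts) was 24.5 to 33.7 counts and 3 counts, taken as the floor of detection, were 0.0891 to 0.123 CPM. Libraries of a tissue were not alike in every respect, with skeletal muscle markers summing to 5.68, 10.1 and 329 CPM in cochlear replicates 1 to 3.

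Neuropeptides and peptide hormones are made as longer precursors, cut at pairs of basic amino acids by proprotein convertases, trimmed and often amidated, stored in dense-core granules and released to act mostly on G protein-coupled receptors. Peptidases on the cell surface then end the signal. In the inner ear, calcitonin gene-related peptide (from Calca) and enkephalins (from Penk) are known from the efferent fibres that reach the hair cells, whose cell bodies lie in the brainstem, outside a dissected epithelium.

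The precursors carry their peptides in different ways, and the coding stretches are shown here because the results turn on 4 of them: Trh and Penk hold repeated copies of a short peptide, and Npy and Pyy are close relatives. The mouse Trh gene (thyrotropin-releasing hormone; chr6:92242061-92244650 on GRCm38, minus strand, 3 exonic blocks) encodes 5 copies of the progenitor Gln-His-Pro-Gly, each between pairs of basic residues. Capitals mark the codons of the progenitor, and positions are codons of the coding sequence counted from the start codon.
Trh copy 1, from codon 75: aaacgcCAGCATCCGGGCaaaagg
Trh copy 2, from codon 107: aaacgaCAGCACCCTGGCcgacgt
Trh copy 3, from codon 152: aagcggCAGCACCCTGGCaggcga
Trh copy 4, from codon 170: aagaggCAGCATCCAGGCcggagg
Trh copy 5, from codon 201: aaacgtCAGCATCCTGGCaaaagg

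Penk (preproenkephalin; chr4:4133531-4138819, minus strand, 3 exonic blocks) encodes 6 copies of Met-enkephalin and 1 of Leu-enkephalin, the copy from codon 229. Capitals mark the 5 codons of the enkephalin after a basic pair in lower case.
Penk copy 1, from codon 98: aagaagTACGGAGGCTTCATG
Penk copy 2, from codon 105: aaacggTACGGAGGCTTCATG
Penk copy 3, from codon 134: aagaggTATGGCGGCTTCATG
Penk copy 4, from codon 185: aagaggTATGGGGGCTTCATG
Penk copy 5, from codon 209: aagcgcTACGGGGGCTTCATG
Penk copy 6, from codon 229: aagaggTATGGGGGCTTCCTG
Penk copy 7, from codon 260: aaaagaTACGGGGGCTTTATG

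Npy (neuropeptide Y; chr6:49822710-49829507, plus strand, 4 exonic blocks) and Pyy (peptide YY; chr11:102106676-102107832, minus strand, 4 exonic blocks over 4 transcripts) encode related mature peptides of 36 amino acids that share the Y receptors. Over the 108 bases of the mature peptide, 76 bases and 24 of 36 amino acids are the same, and capitals mark the codons of those 24. The longest identical run between the Npy and Pyy transcripts is 10 bases, far below a read of 100 bases, so reads of one were not likely to be counted on the other.
Npy: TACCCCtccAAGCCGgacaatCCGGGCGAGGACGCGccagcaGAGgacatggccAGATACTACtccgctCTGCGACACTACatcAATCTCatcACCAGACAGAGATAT
Pyy: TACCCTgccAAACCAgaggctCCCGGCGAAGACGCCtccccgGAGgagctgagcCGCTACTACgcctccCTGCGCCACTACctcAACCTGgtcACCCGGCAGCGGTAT

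Trh was a cochlear transcript in these libraries. It had 263, 198 and 294 counts in cochlear replicates 1 to 3 and 6, 0 and 2 in the vestibular ones. All 3 cochlear libraries lay above all 3 vestibular ones, of which 2 were at or below the floor. Mean Trh was 9.23 ± 2.07 CPM (SD, n = 3) in the cochlea, and over summed counts it was 97.0-fold higher there than in the vestibule, with a 95% counting interval of 49.0 to 226. Of the 8 vestibular counts 6 were in replicate 1, and the fitted log2 difference of -6.68 was -7.79 without that library. The counting interval covers counting error only, for Trh and for every other pooled ratio below.

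Pyy had the opposite pattern. It had 0, 0 and 1 counts in the cochlear libraries and 138, 134 and 281 in the vestibular ones, or 6.78 ± 3.72 CPM (SD, n = 3). The groups did not overlap, and vestibular replicate 3 was well above the other two vestibular libraries. Over summed counts the ratio was 538, with a counting interval of 96.1 to 21280 that is wide because it rests on 1 cochlear count. In bulk tissue, fewer cells of a type and less RNA per cell cannot be told apart, which applies to these genes and to all that follow.

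**Figure D1:**
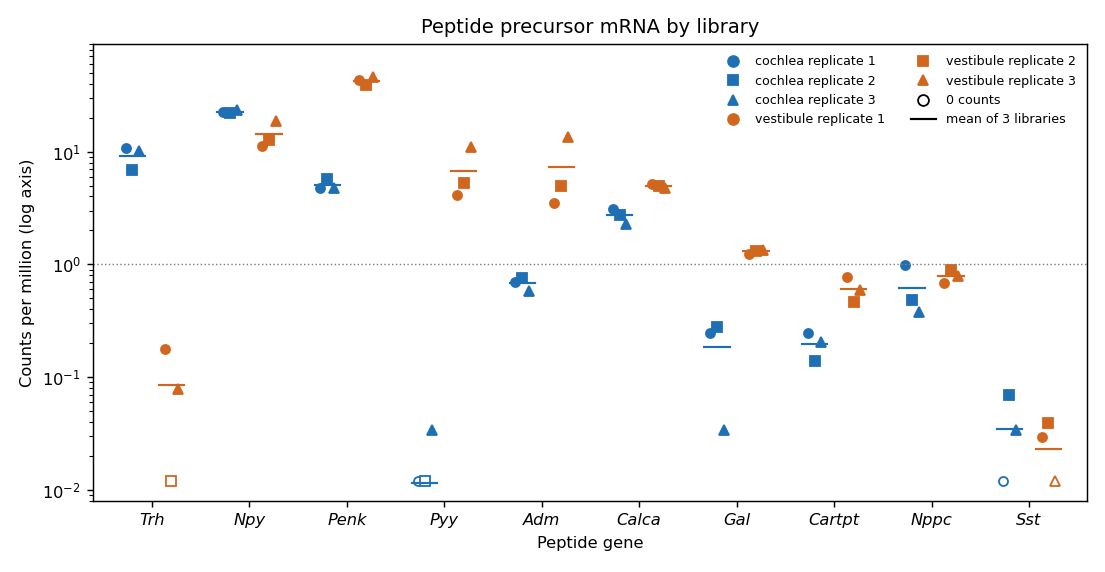
Level in CPM of the 10 peptide genes on a log axis, with 1 point per library, cochlea in blue and vestibule in orange, horizontal bars at the means of 3 libraries, open points at the bottom for 0 counts and a dotted line at the 1 CPM of the filter. Trh is near 10 CPM in the cochlea and near 0 in the vestibule, Pyy is the reverse, and Penk, Adm, Calca and Gal are higher in every vestibular library than in any cochlear one.

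Because the tests ran across all genes, the members can be read against a background. Of 14723 genes with at least 1 CPM in 3 libraries, 27.4% differed between the tissues at a false discovery rate of 0.05 (edgeR's quasi-likelihood test, Benjamini-Hochberg adjusted), 11.6% being higher in the cochlea and 15.8% in the vestibule. The libraries of the tissues did not overlap for 41.8% of genes. Among the 8 members not picked for their pattern, Npy, Penk, Calca, Gal and Adm passed that filter and Sst, Cartpt and Nppc did not. Gal and Adm passed it only through the vestibule, where they were high, so the calls that follow are given gene by gene and no count over them is used as support. For Gal, Adm and other genes that passed in only 1 tissue, the log2 difference and p-value below come from the same edgeR test with no filter except 1 count in all, over 24771 genes.

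Npy, which encodes a widespread neuropeptide of sympathetic and central neurons, had 549, 631 and 685 cochlear counts against 375, 327 and 480 vestibular ones. On the CPM scale the cochlear libraries were close together, at 21.9 to 23.4, and all 3 vestibular libraries were lower, at 11.1 to 18.8. Npy was 1.71-fold higher in the cochlea, a log2 difference of vestibule minus cochlea of -0.77 ± 0.22 (SE; adjusted p = 0.033 by edgeR's quasi-likelihood test, Benjamini-Hochberg adjusted). The direction held in every alternative run, but the call did not survive leaving out cochlear replicate 1 (adjusted p = 0.0727), cochlear replicate 2 (0.0946), vestibular replicate 1 (0.0846) or vestibular replicate 2 (0.125) in the same edgeR test.

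Penk had the smallest standard error among the tested members. It had 117, 165 and 138 cochlear counts against 1449, 996 and 1167 vestibular ones. The lowest vestibular library, at 38.8 CPM, was well above the highest cochlear one, at 5.73 CPM. Penk was 7.70-fold higher in the vestibule, with a log2 difference of 2.94 ± 0.17 (SE; adjusted p = 9e-06, edgeR quasi-likelihood test, Benjamini-Hochberg adjusted), and the difference lay between 2.85 and 3.07 in the 13 alternatives, past the threshold in each. A830012C17Rik, which overlaps Penk on the opposite strand, had 0 to 7 counts per library.

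Adm (chr7:110627661-110629820, plus strand) encodes adrenomedullin, a vasodilator peptide of the calcitonin family. It had 17, 22 and 17 cochlear counts and 117, 126 and 341 vestibular ones. The tissues did not overlap, and vestibular replicate 3, at 13.4 CPM, stood apart from the others at 3.48 and 4.91 CPM. With no filter, the log2 difference was 3.29 ± 0.45 (SE; adjusted p = 2.85e-05, edgeR quasi-likelihood test, Benjamini-Hochberg adjusted). In the filtered fit it was 3.31, and 2.46 without vestibular replicate 3. In that library the summed level of 12 immediate early genes, which respond to handling, was 268 CPM against 188 and 190 in the other vestibular libraries and 171 to 173 in the cochlea, and the summed level of 13 genes of the hypoxia response, Adm among them, was 745 CPM against 684 and 718 there and 607 to 768 in the cochlea. The part of either list in the Adm level was not tested. The antisense gene Gm28863 overlaps Adm and was not analysed here, and no source states the strand setting of the counting.

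Calca (chr7:114631478-114636357, minus strand) gives calcitonin or calcitonin gene-related peptide by alternative splicing, and counts per gene do not separate them. It had 76, 79 and 67 cochlear counts and 173, 127 and 121 vestibular ones, and in CPM every vestibular library, at 4.75 to 5.14, was above every cochlear one, at 2.29 to 3.11. The log2 difference was 0.75 ± 0.21 (SE; adjusted p = 0.0289, edgeR quasi-likelihood test, Benjamini-Hochberg adjusted). The direction did not change, but the call was lost without cochlear replicate 2 (adjusted p = 0.0673), cochlear replicate 3 (0.0617), vestibular replicate 1 (0.0712), vestibular replicate 2 (0.0999) or vestibular replicate 3 (0.0598) in the edgeR test. The paralog Calcb shares a run of 61 identical bases with Calca and 58.9% of aligned coding positions. Calcb had 0 to 5 counts per library.

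Gal (chr19:3409915-3414544, minus strand) encodes galanin, a peptide of many neurons. It had 6, 8 and 1 cochlear counts and 42, 34 and 34 vestibular ones. Vestibular libraries were even, at 1.25 to 1.33 CPM, and above all cochlear ones, of which replicate 3 was below the floor. With no filter, the log2 difference was 2.65 ± 0.51 (SE; adjusted p = 0.000877, edgeR quasi-likelihood test, Benjamini-Hochberg adjusted), and over summed counts the vestibule was 7.13-fold higher, with a counting interval of 4.14 to 13.2.

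The remaining members were scarce. Cartpt (cocaine- and amphetamine-regulated transcript; chr13:99898489-99901091, minus strand) had 6, 4 and 6 cochlear and 26, 12 and 15 vestibular counts, with no overlap between the tissues. With the filter removed, the log2 difference was 1.49 ± 0.50 (SE; adjusted p = 0.0425 over 24771 genes, edgeR quasi-likelihood test). Nppc (C-type natriuretic peptide; chr1:86666291-86670571, minus strand) had 24, 14 and 11 cochlear and 23, 23 and 20 vestibular counts, and the tissues overlapped. Its log2 difference without the filter was 0.23, with a 95% interval of -0.67 to 1.13. Sst (somatostatin; chr16:23889573-23890958, minus strand) had 0, 2 and 1 cochlear and 1, 1 and 0 vestibular counts. All 6 Sst values were at or under the floor, so no fold is given.

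Levels of different genes were compared per kilobase, on the authors' log2 RPKM values (read counts scaled to gene length and library size), which hold 7 of the members. In the cochlea the order was Npy at 5.32 ± 0.05 (SD, n = 3 for each), Trh at 2.71 ± 0.35, Penk at 1.63 ± 0.16, Calca at 0.87 ± 0.22 and Adm at -1.01 ± 0.20, and no neighbours in this order overlapped in their libraries. Gal and Pyy came last with overlapping ranges. In the vestibule Penk was at 4.70 ± 0.12 and Npy at 4.62 ± 0.39, which overlapped. They were followed by Pyy at 3.30 ± 0.74, Adm at 2.15 ± 1.01, Calca at 1.74 ± 0.06 and Gal at 0.88 ± 0.05. Pyy overlapped Adm, and Adm overlapped Calca. Npy thus stood higher than 91.3% of the genes in that matrix in the cochlea, and Penk higher than 84.7% in the vestibule.

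**Figure D2:**
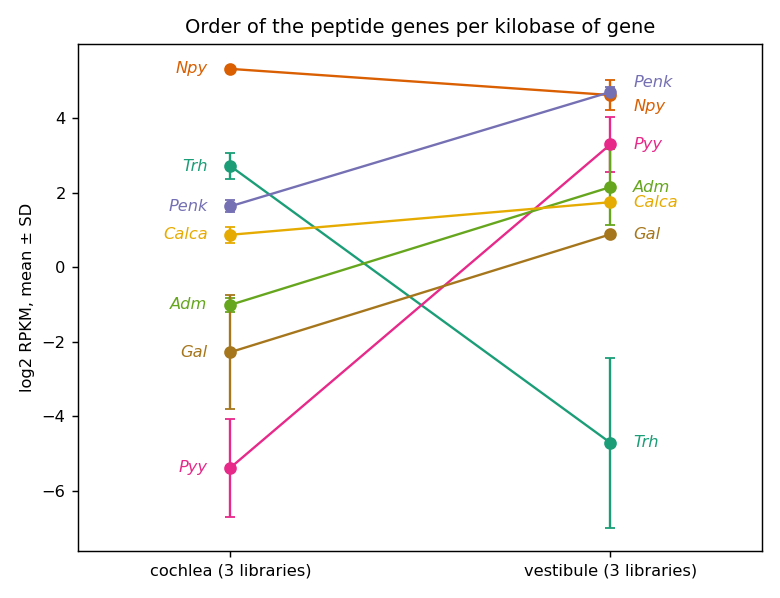
Mean log2 RPKM of 7 peptide genes in the cochlea and vestibule, with SD of 3 libraries as error bars and a line joining each gene's 2 means. Npy leads in the cochlea and Penk and Npy lie together at the top in the vestibule, while the Trh and Pyy lines cross.

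The make-up of the pool changed accordingly. All 10 genes together gave 39.0 to 43.2 CPM in the cochlea and 69.3 to 96.6 CPM in the vestibule. Npy gave 51.9% to 56.2% of these counts in the cochlea and 16.0% to 19.5% in the vestibule. Penk gave 11.1% to 14.7% in the cochlea and 47.4% to 61.7% in the vestibule. Trh gave 17.6% to 24.9% in the cochlea and at most 0.255% in the vestibule. These shares compare counts and not molecules, because longer transcripts give more reads.

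The genes whose pattern over the 6 libraries was nearest to that of Trh, by Euclidean distance of log2 CPM centred on each gene's mean, were Tmem132d at 1.60 log2 units, 2410124H12Rik at 1.72 and Nr2e1, which encodes a nuclear receptor, at 2.62. Nr2e1 had 990, 1623 and 1200 cochlear counts against 8, 2 and 2 vestibular ones. The nearest to Pyy were Prss56, a serine protease gene, at 0.69, the transcription factor gene Sox1 at 1.11 and the corepressor gene Skor2 at 1.47. Prss56 had 3, 3 and 7 cochlear and 621, 580 and 1416 vestibular counts, with its highest library the same as that of Pyy. These distances are descriptions over 6 libraries that share their tissue contrast.

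The promoters of Trh and Pyy are shown because these transcripts were almost absent from one tissue. Capitals mark the TATA motif TATAA, searched on the sense strand, and in Trh also the sequence CGTCA, the reverse complement of the motif TGACG of a cyclic AMP response element.
Trh promoter, chr6:92244601-92244900, minus strand: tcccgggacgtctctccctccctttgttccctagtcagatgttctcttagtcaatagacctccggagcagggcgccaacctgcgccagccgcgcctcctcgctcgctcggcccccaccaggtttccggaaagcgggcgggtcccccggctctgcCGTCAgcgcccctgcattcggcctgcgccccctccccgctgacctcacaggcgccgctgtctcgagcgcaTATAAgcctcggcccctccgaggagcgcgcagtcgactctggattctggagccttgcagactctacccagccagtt
Pyy promoter, chr11:102107783-102108082, minus strand: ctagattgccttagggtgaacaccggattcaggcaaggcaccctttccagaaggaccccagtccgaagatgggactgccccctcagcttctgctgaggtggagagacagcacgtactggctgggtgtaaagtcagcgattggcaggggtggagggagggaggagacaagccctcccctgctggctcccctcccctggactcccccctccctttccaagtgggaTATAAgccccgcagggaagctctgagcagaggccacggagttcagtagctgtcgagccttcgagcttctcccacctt
The sequences are RefSeq windows on GRCm38.p6 from 250 bases before to 50 bases after the transcript start, and 9 of the 10 members had an entry. TATAA was found in 5 of the 9 (Trh, Pyy, Cartpt, Nppc and Adm) and in 17.5% of 32851 mouse promoter windows. The full cyclic AMP response element TGACGTCA, searched on both strands, was found in Sst and Cartpt and in 1.79% of windows. The shorter TGACG, which the full element contains on both strands, was found in 5 of the 9 (Trh, Gal, Sst, Cartpt and Calca) and in 20.8% of windows. In Trh the TATAA begins 26 bases before the start and the CGTCA 96 bases before it, and in Pyy the TATAA begins 27 bases before the start shown and 83 bases before that of a second Pyy entry. A match describes letters and not a bound site.

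Receptor genes for the 10 peptides differed between the tissues in both directions. Of 28 listed receptors and receptor partners, 15 passed the filter, of which 5 were higher in the cochlea and 6 in the vestibule. Trhr, Sstr1, Sstr4 and Oprk1 passed it in only 1 tissue and so had to differ. Among the other 11, 3 were higher in the cochlea and 4 in the vestibule, where 11.6% and 15.8% of all genes tested were. The libraries of the tissues did not overlap for 10 of these 11, against 41.8% of all genes, and their median log2 difference was 0.51, against 0.0048.

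Trhr (chr15:44196135-44235912), the receptor of thyrotropin-releasing hormone, was cochlear like its ligand. It had 160, 106 and 158 cochlear counts against 6, 3 and 2 vestibular ones, with no overlap. Over summed counts it was 39.6-fold higher in the cochlea, with a counting interval of 21.9 to 80.0 (adjusted p = 9.33e-09 with no filter, edgeR quasi-likelihood test, Benjamini-Hochberg adjusted). Npy1r (chr8:66697192-66706792), a receptor of neuropeptide Y and peptide YY, went the other way. It had 29, 33 and 33 cochlear and 288, 205 and 155 vestibular counts, a log2 difference of 2.58 ± 0.22 (SE; adjusted p = 5.97e-05, same edgeR test). Npy1r was the Y receptor with the highest mean count, and the other 4 on the list had at most 12 counts in any library.

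The somatostatin receptors split. Sstr2 had 128, 139 and 165 cochlear and 39, 23 and 37 vestibular counts, a log2 difference of -2.27 ± 0.25 (SE; adjusted p = 0.000269, edgeR quasi-likelihood test, Benjamini-Hochberg adjusted). With no filter, Sstr1 differed by 3.26 ± 0.53 and Sstr4 by 2.45 ± 0.41 (adjusted p = 0.000184 and 0.000257, same test). Sstr1 had 8, 3 and 1 cochlear counts, and its log2 difference in the filtered fit, 3.28, was 4.32 without cochlear replicate 1. Of the opioid receptors, Oprk1, whose main ligands come from another precursor, had 74, 42 and 104 cochlear and 14, 6 and 8 vestibular counts (log2 difference -3.15 ± 0.40 SE; adjusted p = 1.08e-05 by the same test with no filter). Oprm1 and Oprd1, the receptors at which enkephalins act, had 0 or 1 counts in each library. Galr2, the galanin receptor with the highest mean count, had 11, 15 and 18 cochlear and 50, 31 and 20 vestibular counts and did not pass the filter.

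**Figure D3:**
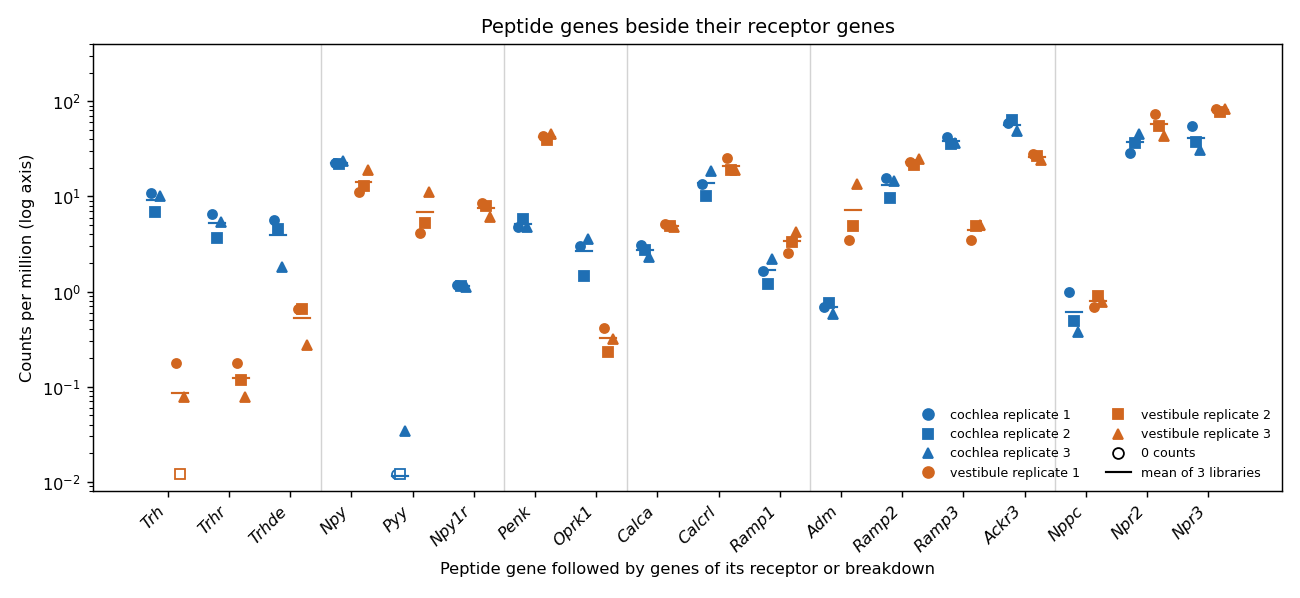
Level in CPM on a log axis of Trh, Npy, Pyy, Penk, Calca, Adm and Nppc, each followed by genes of its receptors or breakdown, with 1 point per library (cochlea blue, vestibule orange), bars at means of 3 libraries and open points for 0 counts. Trh and Trhr are both high in the cochlea, Pyy and Npy1r are both high in the vestibule, and Ramp3 is high in the cochlea where Adm is low.

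Calcitonin gene-related peptide and adrenomedullin share the receptor Calcrl, whose choice of ligand is set by a partner: Ramp1 for the former, Ramp2 or Ramp3 for the latter. Ramp3 (chr11:6658521-6677475) had 1026, 1034 and 1072 cochlear against 117, 125 and 129 vestibular counts, or 35.9 to 41.9 CPM against 3.48 to 5.06 CPM, with no overlap. It was 9.26-fold higher in the cochlea (log2 difference -3.21 ± 0.20 SE; adjusted p = 1.23e-05, edgeR quasi-likelihood test, Benjamini-Hochberg adjusted), and the antisense gene Gm11978 that overlaps it had 0 or 1 counts. Ramp2 had 378, 275 and 426 cochlear and 772, 551 and 625 vestibular counts, a log2 difference of 0.69 ± 0.19 (SE; adjusted p = 0.0259, same test). The Ramp2 call was lost without cochlear replicate 2 (adjusted p = 0.0629), vestibular replicate 1 (0.0519), vestibular replicate 2 (0.0613) or vestibular replicate 3 (0.0684) in the edgeR test. With the replicate number as a block in the edgeR model it was also lost (adjusted p = 0.0518).

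Calcrl had a log2 difference of 0.47 (95% interval -0.01 to 0.96; adjusted p = 0.133, edgeR) and Ramp1 of 0.88 (0.18 to 1.59; adjusted p = 0.0669, edgeR). Without cochlear replicate 3, Calcrl (adjusted p = 0.0248) and Ramp1 (0.0341) passed the edgeR threshold, and without vestibular replicate 1 Ramp1 did (0.0425). Calcrl and Ramp2 are also expressed by blood vessels, and the summed level of 11 endothelial markers was 216 to 298 CPM in cochlear libraries and 496 to 710 in vestibular ones. Of the 11, 9 were called higher in the vestibule and 1 in the cochlea, against 15.8% and 11.6% of all genes tested. None of the 11 was at 0, and their part in the Calcrl, Ramp2 and Adm levels was not tested. Ackr3, a decoy receptor that takes up adrenomedullin, had 1432, 1813 and 1430 cochlear and 930, 676 and 621 vestibular counts. It was lower in the vestibule, with a log2 difference of -1.25 ± 0.14 (SE; adjusted p = 0.000325, edgeR quasi-likelihood test, Benjamini-Hochberg adjusted).

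Of the natriuretic peptide receptors, Npr1, the receptor of the atrial and brain peptides, had a log2 difference of 1.50 ± 0.31 (SE) and the clearance receptor Npr3 of 0.88 ± 0.20 (adjusted p = 0.00683 and 0.0123, edgeR quasi-likelihood test, Benjamini-Hochberg adjusted). Npr3 had 1340, 1072 and 892 cochlear and 2806, 1999 and 2119 vestibular counts, and its call was lost without cochlear replicate 2 (adjusted p = 0.0577). Npr2, the signalling receptor of the peptide from Nppc, had 696, 1055 and 1336 cochlear and 2468, 1425 and 1108 vestibular counts, which overlapped in CPM. Its log2 difference was 0.51 with a 95% interval of 0.02 to 0.99 (adjusted p = 0.113, edgeR), and without cochlear replicate 3 it passed (adjusted p = 0.0472). The remaining tested partner, Crcp, had a log2 difference of -0.01 (95% interval -0.31 to 0.29).

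Genes that make peptides and their granules were, where called, mostly higher in the cochlea. Of 22 tested, 10 were higher in the cochlea and 1 in the vestibule, against 11.6% and 15.8% of all genes tested. They had a median log2 difference of -0.84. The convertase genes Pcsk2 (-1.96 ± 0.33 SE) and Pcsk6 (-1.94 ± 0.16), the convertase inhibitor gene Pcsk1n (-2.13 ± 0.61) and Qpct (-0.54 ± 0.18), whose enzyme forms the cyclic glutamate that begins thyrotropin-releasing hormone, were among them on the log2 scale. So were the granins Chga (-1.32 ± 0.26 SE), Chgb (-1.38 ± 0.36) and Scg2 (-1.58 ± 0.23), the granule release factors Cadps (-1.69 ± 0.48) and Cadps2 (-1.09 ± 0.13), and the granule membrane gene Ptprn2 (-1.82 ± 0.35). Cpd, a carboxypeptidase gene, was higher in the vestibule by 0.65 ± 0.15 on the log2 scale. Adjusted p-values in edgeR's quasi-likelihood test ran from 5.97e-05 for Pcsk6 to 0.0498 for Qpct.

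Of the processing and granule genes called higher in the cochlea, Pcsk6 had the highest cochlear log2 RPKM, at 5.71. Its level was 271 ± 44.8 CPM (SD, n = 3) there against 77.0 ± 1.69 in the vestibule, and it also serves growth factor precursors. Cpe and Pam, which trim and amidate peptides, had log2 differences of 0.28 (95% interval -0.01 to 0.58) and -0.30 (-0.59 to -0.01) and did not pass (adjusted p = 0.14 and 0.121, edgeR). Cpe passed only when libraries were scaled by size alone (adjusted p = 0.0279).

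The cochlear libraries were uneven for several of these genes. Pcsk1n had 368, 347 and 125 cochlear counts against 137, 18 and 75 vestibular ones. Chgb had 736, 927 and 392 cochlear counts against 513, 211 and 215 vestibular ones, so that cochlear replicate 3 and vestibular replicate 1 overlapped in CPM. The summed level of neuron markers was likewise lowest in replicate 3 among the cochlear and highest in replicate 1 among the vestibular libraries, with 1411, 1335 and 811 CPM in cochlear libraries 1 to 3 against 781, 481 and 552 in vestibular ones. Of the 16 that were tested, 8 were called higher in the cochlea and 0 in the vestibule, against 11.6% and 15.8% of all genes tested. The part of neurons in the granule gene differences was not tested.

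Without cochlear replicate 3, which also held 329 CPM of skeletal muscle genes against 5.68 to 31.1 elsewhere, 14 of the 22 processing and granule genes were called. Without cochlear replicate 1, cochlear replicate 2 or vestibular replicate 2, 7 were called. In these fits the calls over all genes moved in the same direction, from 4036 to 4713 without cochlear replicate 3 and to 3113, 2947 and 2655 in the other fits in this order. Without vestibular replicate 1 they did not, with 12 of the 22 called in place of 11 and 3176 over all genes. Qpct, Pcsk1n, Chgb and Cadps each lost their call in 4 of the 6 fits that left out 1 library, with adjusted p-values there of 0.0517 to 0.18 (edgeR). These were the fits without cochlear replicate 1, cochlear replicate 2 or vestibular replicate 2 for all 4 genes, and without vestibular replicate 1 for Qpct or vestibular replicate 3 for the others. Qpct also lost it with limma-voom (adjusted p = 0.0507) and, in edgeR, with upper quartile scaling (0.0623) or scaling by library size alone (0.0899), and Cadps with scaling by library size alone (0.0511). Cadps reached -2.27 on the log2 scale without vestibular replicate 1.

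**Figure D4:**
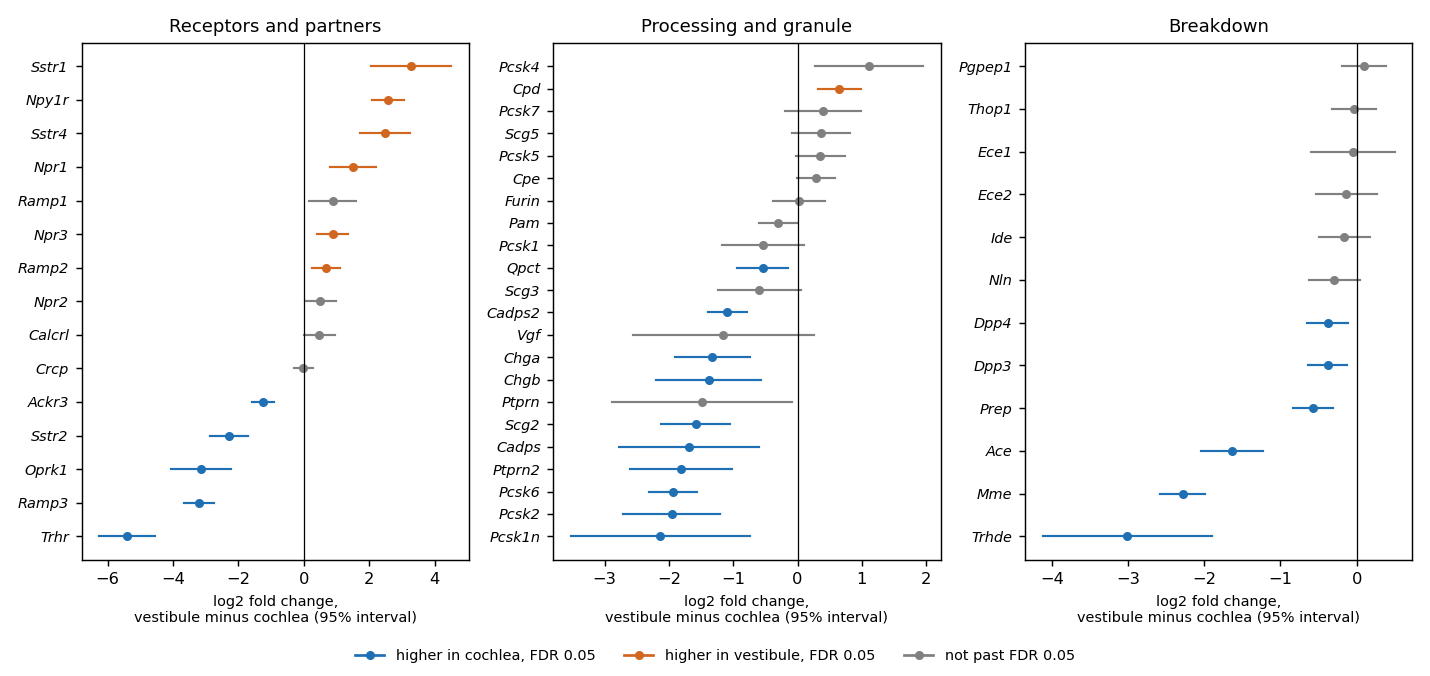
Log2 fold change, vestibule minus cochlea, with 95% intervals for the tested genes of the receptor, processing and granule, and breakdown lists, 1 gene per line. Blue points were higher in the cochlea and orange ones in the vestibule at a false discovery rate of 0.05, and grey ones did not pass. Receptors lie on both sides of 0, while 10 of 22 processing genes and 6 of 12 breakdown genes are blue, against 11.6% of all genes tested. Trhde, among the blue breakdown genes, passed the filter only through the cochlea.

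Genes of peptide breakdown were higher in the cochlea wherever they were called. Of 12 tested, 6 were higher in the cochlea and 0 in the vestibule. Trhde passed in only 1 tissue and so had to differ. Among the other 11, 5 were higher in the cochlea and 0 in the vestibule, against 11.6% and 15.8% of all genes tested, with a median log2 difference of -0.30. Mme, which encodes the enkephalin-degrading peptidase neprilysin, had 9115, 9968 and 12398 cochlear and 2853, 2141 and 2207 vestibular counts, and the tissues did not overlap. It was 4.86-fold higher in the cochlea (log2 difference -2.28 ± 0.13 SE; adjusted p = 7.91e-06, edgeR quasi-likelihood test, Benjamini-Hochberg adjusted). Trhde, whose ectoenzyme cleaves thyrotropin-releasing hormone, had 137, 130 and 53 cochlear and 22, 17 and 7 vestibular counts (log2 difference -3.04 ± 0.43 SE; adjusted p = 3.44e-05, same test with no filter).

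Ace, the angiotensin-converting enzyme gene, differed by -1.63 ± 0.18 (SE) on the log2 scale and Prep, a proline-specific peptidase gene, by -0.57 ± 0.11 (adjusted p = 0.000232 and 0.00586, edgeR quasi-likelihood test, Benjamini-Hochberg adjusted). Dpp4, which trims neuropeptide Y and peptide YY, differed by -0.38 ± 0.12 (adjusted p = 0.0428) and Dpp3 by -0.38 ± 0.11 (adjusted p = 0.0327) in the same edgeR test. Dpp4 lost its call in all 6 fits that left out 1 library (adjusted p = 0.0574 to 0.202, edgeR). Dpp3 lost it in all but the fit without vestibular replicate 3 (0.0506 to 0.141, edgeR). Both also lost it in edgeR with scaling by library size alone (adjusted p = 0.137 for Dpp4 and 0.0996 for Dpp3) and with no filter (0.0704 and 0.0601), and Dpp4 with upper quartile scaling (0.0509). With the replicate number as a block in the edgeR model, Prep (adjusted p = 0.0533), Dpp3 (0.156) and Dpp4 (0.172) lost their call. Pgpep1, whose enzyme also cleaves thyrotropin-releasing hormone, had a log2 difference of 0.09 (95% interval -0.19 to 0.38).

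Most other peptide precursors were scarce. Of 53 further precursor genes on the list, 9 passed the filter, and 1 of them was higher in the cochlea and 3 in the vestibule. Cck passed only through the vestibule and so had to differ. Among the other 8, 1 was higher in the cochlea and 2 in the vestibule, against 11.6% and 15.8% of all genes tested. Their median log2 difference was 0.10. Cck (cholecystokinin; chr9:121489824-121495694) had 0, 4 and 2 cochlear and 221, 237 and 241 vestibular counts. Over summed counts it was 113-fold higher in the vestibule, with a counting interval of 51.8 to 310 (adjusted p = 7.01e-09 with no filter, edgeR quasi-likelihood test, Benjamini-Hochberg adjusted), and its log2 difference in the filtered fit, 6.66, became 7.59 without cochlear replicate 2. Grp (gastrin-releasing peptide) had 305, 495 and 410 cochlear and 161, 136 and 179 vestibular counts, a log2 difference of -1.47 ± 0.24 (SE; adjusted p = 0.002, same test).

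Edn3, the endothelin that acts on melanocyte and enteric precursors, was higher in the vestibule by 1.35 ± 0.17 on the log2 scale, and Nucb2, the nesfatin precursor, by 0.72 ± 0.16 (SE; adjusted p = 0.000561 and 0.00998, edgeR quasi-likelihood test, Benjamini-Hochberg adjusted). Pthlh, the gene of parathyroid hormone-related peptide, was even, at 9.17 ± 0.57 CPM in the cochlea and 9.07 ± 1.06 in the vestibule (SD, n = 3), and its log2 difference had a 95% interval of -0.54 to 0.28.

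The label of the tissue was checked against marker lists. All 15 hair cell markers were detected, with a summed level of 795 to 984 CPM in cochlear and 1296 to 1614 in vestibular libraries. Other cells were present too. Schwann cell markers summed to 844 to 1070 CPM in cochlear and 1459 to 1837 in vestibular libraries, macrophage markers to 137 to 161 and 626 to 694, and melanocyte markers to 45.5 to 70.3 and 308 to 365. Among markers that passed the filter in both tissues, 8 of 14 for hair cells, 4 of 10 for Schwann cells, 10 of 10 for macrophages and 5 of 6 for melanocytes were called higher in the vestibule, where 15.8% of all genes tested were, and 1, 1, 0 and 0 in the cochlea. Markers of mesenchyme (5 of 12) and of cartilage and bone (5 of 10) were also called higher in the vestibule, with 2 of each higher in the cochlea. Markers of cochlear supporting cells summed to 2984 to 3833 CPM in cochlear and 2559 to 3107 in vestibular libraries, and 7 of the 10 that passed in both tissues were called higher in the cochlea, where 11.6% of all genes tested were, and 2 in the vestibule. More supporting cell and neuron markers were thus called higher in the cochlea, the tissue in which Trh, Npy, Trhr and most called granule genes were higher. More markers of hair cells, Schwann cells, macrophages, melanocytes, mesenchyme, cartilage and bone, and endothelium were called higher in the vestibule, where Penk, Pyy, Adm, Calca and Gal were higher. No tested marker of skeletal muscle or red blood cells was called in either direction. The summed levels of supporting cell markers overlapped between the tissues, but a large part of the vestibular sum was 1 gene called higher there. This was Otog, the most abundant of the list, at 663 to 1184 CPM in the cochlea and 1895 to 2345 in the vestibule. The part of these lists in those levels was not tested.

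**Figure D5:**
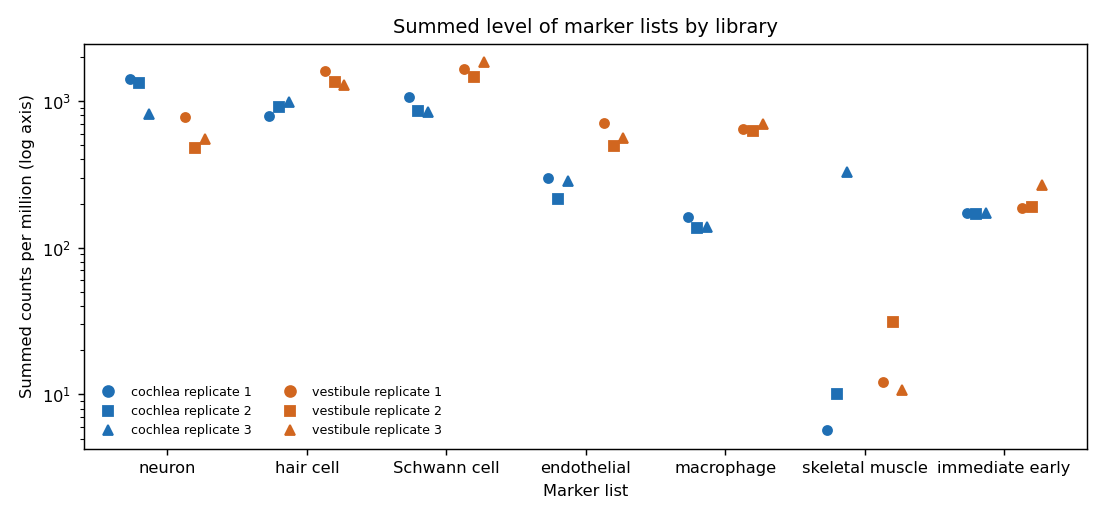
Summed level in CPM of 7 gene lists on a log axis, 1 point per library, cochlea in blue and vestibule in orange. Neuron markers are lower in cochlear replicate 3 than in the other cochlear libraries, skeletal muscle markers reach 329 CPM only in cochlear replicate 3, and the immediate early list is highest in vestibular replicate 3.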

How the data were processed

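Per the submitters' processing notes and the study's methods, 100-base paired reads of poly(A)-selected stranded libraries were aligned to GRCm38 with TopHat2 2.1.0 and counted with HTSeq 0.5.4p5 (SAMtools 0.1.18, edgeR 3.4.2), and the strand setting is not given in the sources used here. The authors deposited raw counts per Ensembl gene for each library, and a matrix of log2 RPKM values for 14722 genes, used here only to compare genes. The summary lines of the counting, which hold all reads not assigned to a single gene, were 18.5% to 20.6% of listed counts and were left out. Gene symbols (37607 of 39179 matched) and positions came from GENCODE vM21.

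Genes with at least 1 CPM in 3 of 6 libraries (14723) were scaled by TMM and tested with edgeR 4.0.16 (R 4.3.3; quasi-likelihood test, Benjamini-Hochberg adjustment over all genes tested, threshold 0.05). The test was checked on simulated data. Differences are log2 vestibule minus cochlea with SE and 95% intervals from the fit, and pooled ratios have exact 95% binomial intervals. Alternatives were DESeq2 1.42.0, limma-voom (limma 3.58.1), other scalings and filters, a replicate block and leaving out each library. All members were reported, list genes were named where called or where the most abundant receptor of a member, and neighbours of Trh and Pyy were the 3 nearest genes. The members and lists were put together with earlier results of these data known, although Trh and Pyy alone were picked for their values. Ramp1, Calcrl, Npr2, Crcp, Cpe, Pam, Pgpep1 and Pthlh, and genes under the filter, were named outside that rule after their values were seen. Galr3 and Kiss1 were not analysed here. A listed marker gene is not reported here.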

Additional observations from a re-analysis of the deposited data

How the results depend on the processing

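Npy, Penk and Calca kept their direction in the 13 alternatives, and Penk was called in all of them. The directions of Trh and Pyy, picked for their values, and of Gal and Adm, which passed the filter through the vestibule alone, say nothing of stability. The weaker calls of Npy and Calca are given in the report. Deviations from the tissue mean correlated at -0.18, -0.26 and -0.48 between same-numbered cochlear and vestibular libraries, and at -0.27 to 0.41 between the other pairs. Because they are centred within 3 libraries per tissue, these values cannot tell whether same-numbered libraries came from the same dissection. With a replicate block, 2618 genes were called in place of 4036 and 3 breakdown genes in place of 6. Npy (adjusted p = 0.0513, edgeR) and Calca (0.0922) lost their call in that fit. Fits that left out 1 library called 2655 to 4713 genes, 9 to 14 receptors, 7 to 14 processing and granule genes and 4 to 5 breakdown genes. The fitted log2 difference of Pyy, 8.59, was 7.72 with limma-voom and 10.5 without cochlear replicate 3, which holds its only cochlear count. Scaling by library size alone moved the median log2 difference of all genes from 0.0048 to 0.125, and calls from 1711 higher in the cochlea and 2325 in the vestibule to 1251 and 2754. Depth limits Sst, Cartpt and Nppc, all under 1 CPM in every library.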

Other observations

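Several precursor and receptor genes that did not pass the filter still had libraries that did not overlap between the tissues, and they were singled out after their values were seen, with no test. Edn2, an endothelin gene, had 23, 35 and 22 cochlear and 6, 6 and 5 vestibular counts. Gnrh1, the gene of gonadotropin-releasing hormone, had 1, 0 and 1 cochlear and 11, 8 and 6 vestibular counts. Ucn2, a urocortin gene, had 1, 1 and 4 cochlear and 11, 11 and 5 vestibular counts. Trhr2, the second receptor gene of thyrotropin-releasing hormone, had 3, 3 and 1 cochlear counts and 0 in each vestibular library. Npy2r had 3, 10 and 9 cochlear and 1, 2 and 0 vestibular counts, and Npy4r had 12, 9 and 5 cochlear and 3, 1 and 2 vestibular counts. Every Trhr2 value was at or under the floor of 3 counts. So were the cochlear Gnrh1 values and the vestibular Npy2r and Npy4r values. How many other genes under the filter had libraries that did not overlap was not counted.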
